A study of Homo sapiens with 8 samples.

Results

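The genes described here encode the enzymes that make and recycle purine, pyrimidine and deoxynucleotide building blocks, together with the nucleoside transporter SLC29A1. They were taken from a list of 35 genes, and 33 of them had a probe set paired with a single gene symbol, out of 17958 genes measured in that way. For the 1 gene with several such probe sets, DTYMK, the set with the highest mean over the 8 arrays was taken, and its 2 probe sets held identical values. ADSS2 was not analysed here, nor was SAMHD1, whose probe sets carry a further symbol.

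Total RNA was hybridised to whole-transcript Affymetrix arrays, 1 sample per array. The arrays fell into 3 groups: KMH2 cells after 24 h of glucosamine (3 arrays), Ramos cells (2 arrays) and KMH2 control cells (3 arrays). KMH2 is a Hodgkin lymphoma line and Ramos a Burkitt lymphoma line, each a single established line, and all cells were grown in the same RPMI medium with GlutaMAX, heat-inactivated serum and antibiotics. Glucosamine is an amino sugar that cells phosphorylate and use for hexosamines. The labels state no dose. The KMH2 replicates are called biological in the design text, and the nature of the Ramos replicates is not given, so p-values measure the spread between these arrays. The titles mark both Ramos arrays as controls, while the design text describes a Ramos pair taken before and after glucosamine. Ramos was therefore used as a cell line only, and no treatment was assigned to either of its arrays.

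Purine nucleotides are built stepwise on phosphoribosyl pyrophosphate until inosine monophosphate (IMP) is reached, from which AMP and GMP branch. Pyrimidines are assembled as a free ring that is then joined to the ribose phosphate, giving UMP and, after further steps, CTP. Salvage enzymes return free bases and nucleosides to the pools, and ribonucleotide reductase turns ribonucleotides into the deoxy forms that DNA synthesis consumes. Dividing lymphoid cells depend on these routes, and several of the enzymes are targets of drugs used against leukaemia, lymphoma and autoimmune disease.

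All values below are log2 signals of a probe set, and they are compared between arrays for the same gene, never between genes. Array medians lay between 5.62 and 5.68. The median SD between replicates over these 33 genes was 0.0547 in KMH2 glucosamine, 0.339 in Ramos and 0.0487 in KMH2 control, against 0.08, 0.113 and 0.067 over all probe sets tested, so the Ramos arrays stood apart from each other on these genes. Defining markers followed the cell lines: all 5 measured B-lineage markers were higher in Ramos than in KMH2 control, and all 5 Hodgkin markers were lower. Of the T-cell, myeloid, erythroid and fibroblast markers, CD3D (-2.50), CD14 (-1.96) and COL1A1 (-0.36) were lower in Ramos, and LYZ (0.64) and CD8A (0.27) were higher. After glucosamine, 1 of 3 myeloid markers fell, CD14, and the summed signal of the list on the linear scale was 105 to 127 in KMH2 glucosamine arrays and 182 to 242 in KMH2 control arrays. None of 3 T-cell, 3 erythroid and 3 fibroblast markers passed the test there. Of KMH2's own Hodgkin markers 4 of 5 fell after glucosamine, GATA3 (-1.04), TNFRSF8 (-0.73), CCL17 (-0.47) and IRF4 (-0.34), and CSF1R rose (0.54), with a summed signal of 2539 to 2634 in KMH2 glucosamine and 3274 to 3576 in KMH2 control. PAX5 (-0.37) and BCL6 (-0.51) fell as well, 1 of 5 B-lineage and 1 of 4 germinal centre markers. The part of these marker changes in the results below was not tested.

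After glucosamine, most nucleotide synthesis genes fell, by modest amounts. In each difference below the KMH2 control mean is subtracted from the KMH2 glucosamine mean, and a gene is said to have fallen or risen when its adjusted p from limma, over all 19181 probe sets tested, was under 0.05. By that rule 21 of the 33 genes fell (63.6%), 2 rose and 10 did not pass. Over all probe sets tested 25.8% passed, 13.9% lower and 11.9% higher. The median difference of the 33 genes was -0.25, against 0.01 over all probe sets, and it ran from -1.19 for PFAS to 0.36 for CMPK1. In 26 genes every glucosamine array lay below every control array, and in 2 every one lay above; over all probe sets 20.6% separated downwards and 20.3% upwards. Only 1 of the called genes, PFAS, differed by at least 2-fold. In bulk RNA, fewer cells that express a gene and less of its RNA per cell cannot be told apart. When the Ramos arrays also entered the estimate of spread, 6 of the 23 genes kept their call, namely PAICS, PNP, CAD, UMPS and CTPS1 lower and CMPK1 higher, and 2177 probe sets passed in all. That estimate takes in the difference between the 2 Ramos arrays, which the design text describes as taken before and after glucosamine. The fit cannot tell such a difference from replicate spread, here or where it is given for single genes and lists below.

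**Figure D1:**
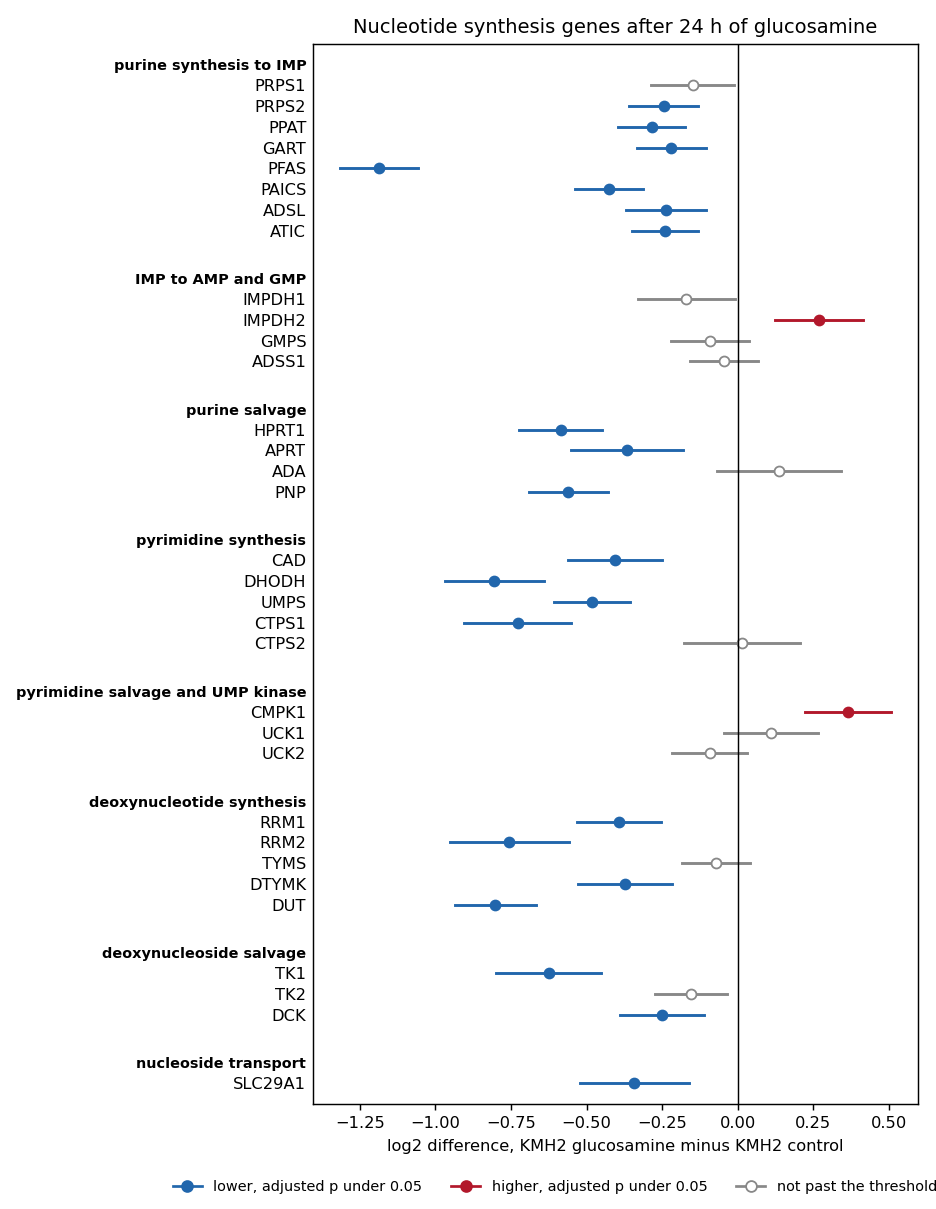
Log2 difference, KMH2 glucosamine minus KMH2 control, for each of the 33 genes in order of role, with bars for the 95% confidence interval of the limma fit on 6 arrays. Filled blue points fell and filled red points rose at an adjusted p under 0.05; 21 genes are blue, IMPDH2 and CMPK1 are red, and PFAS stands furthest left at -1.19.

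Of the 8 measured genes of the route to IMP, 7 fell and none rose, with a median difference of -0.24. PFAS, which encodes the glutamine-using synthase of the fourth step, differed most. Its KMH2 glucosamine arrays read 7.15, 7.24 and 7.17, against 8.43, 8.38 and 8.31 in the KMH2 control arrays. The 3 treated arrays lay more than a log2 unit below the 3 controls, and the difference was -1.19 ± 0.056 (SE, n = 3 each, 95% confidence interval -1.31 to -1.06, adjusted p = 1.77e-05 in limma), a 2.27-fold decrease. With the Ramos arrays in the estimate of spread its adjusted p was 0.0614.

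PAICS, which carries out a later carboxylation and the ligation after it, read 10.20, 10.17 and 10.16 after glucosamine and 10.62, 10.61 and 10.58 in control. The groups were far apart relative to their spread, with a difference of -0.43 ± 0.0487 (SE, adjusted p = 0.000564). PPAT, the amidotransferase of the committed first step, read 8.21, 8.21 and 8.18 after glucosamine, against 8.49, 8.47 and 8.50 in control, a difference of -0.28 (adjusted p = 0.00325). PPAT and PAICS lie back to back on chromosome 4 and are read in opposite directions, so both falls concern genes that share 1 stretch of upstream DNA. That stretch is printed here as the plus strand between the PPAT start and the PAICS start (chr4:56435616-56435751, GRCh38.p14, RefSeq). It holds no match to the motifs given further below. ATIC, the enzyme of the last steps to IMP, is shown beside it because it does (chr2:215311973-215312058, plus strand, from the end of a neighbouring transcript to the base before the ATIC start; capitals mark a CACGTG E-box at -46).
PPAT-PAICS: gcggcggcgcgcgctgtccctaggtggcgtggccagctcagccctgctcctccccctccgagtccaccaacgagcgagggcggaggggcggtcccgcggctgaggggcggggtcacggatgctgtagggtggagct
ATIC: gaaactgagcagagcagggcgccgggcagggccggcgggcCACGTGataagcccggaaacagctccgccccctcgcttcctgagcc

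The other genes of the route had smaller differences. ATIC itself read 9.83, 9.88 and 9.86 after glucosamine and 10.10, 10.09 and 10.10 in control, 2 tight sets that did not overlap (difference -0.24, adjusted p = 0.00707). GART, a trifunctional enzyme of the same route, differed by -0.22 (adjusted p = 0.0126), and PRPS2, which makes the phosphoribosyl pyrophosphate that starts it, by -0.25 (adjusted p = 0.00801). PRPS1, the other synthetase of that kind, differed by -0.15 and did not pass (adjusted p = 0.11). It passed with array weights (0.0345) and without KMH2 glucosamine replicate 1 (0.0417). ADSL, the adenylosuccinate lyase that acts both here and in AMP synthesis, fell by 0.24 (adjusted p = 0.0179), a call that was lost without KMH2 control replicate 1 (0.0618), KMH2 control replicate 3 (0.0593) or KMH2 glucosamine replicate 3 (0.0717). Over all alternatives its adjusted p ran from 0.00656 to 0.227.

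Beyond IMP, on the branches to AMP and GMP, none of the 4 measured genes fell and 1 rose, with a median of -0.07. The share called, 25%, is near the 25.8% of all probe sets. IMPDH2, the main IMP dehydrogenase of proliferating cells and the entry to GMP, read 9.51, 9.52 and 9.51 in KMH2 glucosamine, against 9.36, 9.17 and 9.20 in KMH2 control. All treated arrays were above all controls, by 0.27 ± 0.0633 (SE, 95% confidence interval 0.12 to 0.42, adjusted p = 0.0152). That call was lost without KMH2 control replicate 2 (0.0647), KMH2 control replicate 3 (0.0607) or KMH2 glucosamine replicate 3 (0.0501), within a range of 0.00323 to 0.107 over its alternatives. Its paralogue IMPDH1 read 6.97, 6.84 and 6.73 after glucosamine and 7.00, 7.01 and 7.05 in control. The sets did not overlap but glucosamine replicate 1 lay close to the controls, and the difference of -0.17 did not pass (adjusted p = 0.116). It passed with array weights (0.0108) and without glucosamine replicate 1 (0.0227). GMPS, which turns XMP into GMP, differed by -0.09 (95% confidence interval -0.22 to 0.04, adjusted p = 0.293). ADSS1, the muscle-type adenylosuccinate synthetase, differed by -0.05 (95% confidence interval -0.16 to 0.07, adjusted p = 0.565).

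Purine salvage genes fell in 3 of 4 cases, with a median of -0.46. HPRT1 rebuilds IMP and GMP from hypoxanthine and guanine, and its loss causes Lesch-Nyhan disease. It read 9.18, 9.26 and 9.23 after glucosamine, against 9.72, 9.84 and 9.88 in control, and the groups were separated by a wide gap. The difference was -0.59 ± 0.0595 (SE, 95% confidence interval -0.72 to -0.45, adjusted p = 0.00033). PNP, the purine nucleoside phosphorylase, read 9.32, 9.37 and 9.36 after glucosamine and 9.97, 9.83 and 9.94 in control, again with no overlap (difference -0.56 ± 0.0569, SE, adjusted p = 0.000327). APRT, which salvages adenine, fell by 0.37 (adjusted p = 0.0114). ADA, the adenosine deaminase lacking in a form of severe combined immunodeficiency, read 5.36, 4.99 and 5.17 after glucosamine and 5.04, 5.01 and 5.07 in control. These low signals overlapped, and the difference of 0.14 did not pass (adjusted p = 0.329).

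In pyrimidine synthesis 4 of 5 genes fell, with a median of -0.48. DHODH, the mitochondrial dihydroorotate dehydrogenase, differed most in this route. It read 7.61, 7.75 and 7.66 after glucosamine, against 8.55, 8.54 and 8.35 in control, so even the highest treated array was well below the lowest control. The difference was -0.81 ± 0.0711 (SE, 95% confidence interval -0.97 to -0.64, adjusted p = 0.000187), and with the Ramos arrays in the spread the adjusted p was 0.174. The bases before its start are printed because this gene fell most in the route and its window holds both an E-box and a CCAAT box (chr16:72008494-72008743, plus strand, GRCh38.p14, RefSeq; capitals mark the E-box CACGTG and the CCAAT box CCAAT, whose first bases lie at -159 and -22 from the start). CMPK1, described below as one of the genes that rose, is printed beside it and holds no match (chr1:47333540-47333789, plus strand).
DHODH: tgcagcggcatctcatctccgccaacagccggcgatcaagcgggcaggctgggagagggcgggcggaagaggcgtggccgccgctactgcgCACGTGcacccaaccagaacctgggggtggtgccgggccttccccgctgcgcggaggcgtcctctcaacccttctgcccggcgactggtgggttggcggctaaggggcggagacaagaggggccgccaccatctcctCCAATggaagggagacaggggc
CMPK1: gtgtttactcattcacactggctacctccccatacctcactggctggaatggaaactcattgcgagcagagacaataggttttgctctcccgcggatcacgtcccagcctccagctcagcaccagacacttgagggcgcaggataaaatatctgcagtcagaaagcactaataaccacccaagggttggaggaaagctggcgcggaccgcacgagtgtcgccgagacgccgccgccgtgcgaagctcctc

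CTPS1, the CTP synthase on which lymphocyte proliferation depends, read 8.59, 8.83 and 8.77 after glucosamine and 9.36, 9.50 and 9.52 in control. The groups did not overlap, and the difference was -0.73 ± 0.0775 (SE, 95% confidence interval -0.91 to -0.55, adjusted p = 0.000406). Its paralogue CTPS2 read 3.98, 3.72 and 3.74 after glucosamine and 3.82, 3.71 and 3.87 in control. Those low signals overlapped, with a difference of 0.01 (95% confidence interval -0.18 to 0.21, adjusted p = 0.932). UMPS, which adds the ribose phosphate and makes UMP, differed by -0.48 (adjusted p = 0.000558), and CAD, the large enzyme of the first 3 steps, by -0.41 (adjusted p = 0.00317). Both were lower on every treated array than on every control.

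None of the 3 genes of pyrimidine salvage and UMP phosphorylation fell. CMPK1, the kinase that phosphorylates UMP and CMP, read 10.05, 10.07 and 10.04 in KMH2 glucosamine, against 9.62, 9.64 and 9.80 in KMH2 control. All treated arrays were above all controls, by 0.36 ± 0.0616 (SE, 95% confidence interval 0.22 to 0.51, adjusted p = 0.00341), and the call held in every alternative run. The uridine-cytidine kinase genes UCK1 and UCK2 differed by 0.11 (95% confidence interval -0.05 to 0.26, adjusted p = 0.298) and -0.09 (95% confidence interval -0.22 to 0.03, adjusted p = 0.266), with overlapping arrays in both.

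Of the 5 genes of deoxynucleotide synthesis 4 fell, with a median of -0.39. DUT, which hydrolyses dUTP and so supplies dUMP while keeping uracil out of DNA, read 8.13, 8.01 and 8.13 after glucosamine, against 8.94, 8.90 and 8.84 in control. The 2 sets were tight and distant, with a difference of -0.80 ± 0.0578 (SE, 95% confidence interval -0.93 to -0.67, adjusted p = 8.8e-05). RRM2, the small subunit of ribonucleotide reductase, read 8.16, 8.43 and 8.35 after glucosamine and 9.19, 9.01 and 9.01 in control. It varied more within each group, but the groups did not overlap (difference -0.76 ± 0.0848, SE, adjusted p = 0.000525). RRM1, the large subunit, read 9.86, 9.97 and 9.80, against 10.28, 10.30 and 10.23 in control, and fell by 0.39 (adjusted p = 0.0022). DTYMK, the thymidylate kinase, differed by -0.37 (adjusted p = 0.00479).

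TYMS, the thymidylate synthase targeted by fluoropyrimidines, was the gene of this group that did not pass. It read 10.99, 11.00 and 11.03 after glucosamine and 11.10, 11.08 and 11.05 in control. The sets did not overlap but the gap was small, with a difference of -0.07 (95% confidence interval -0.18 to 0.04, adjusted p = 0.344).

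**Figure D2:**
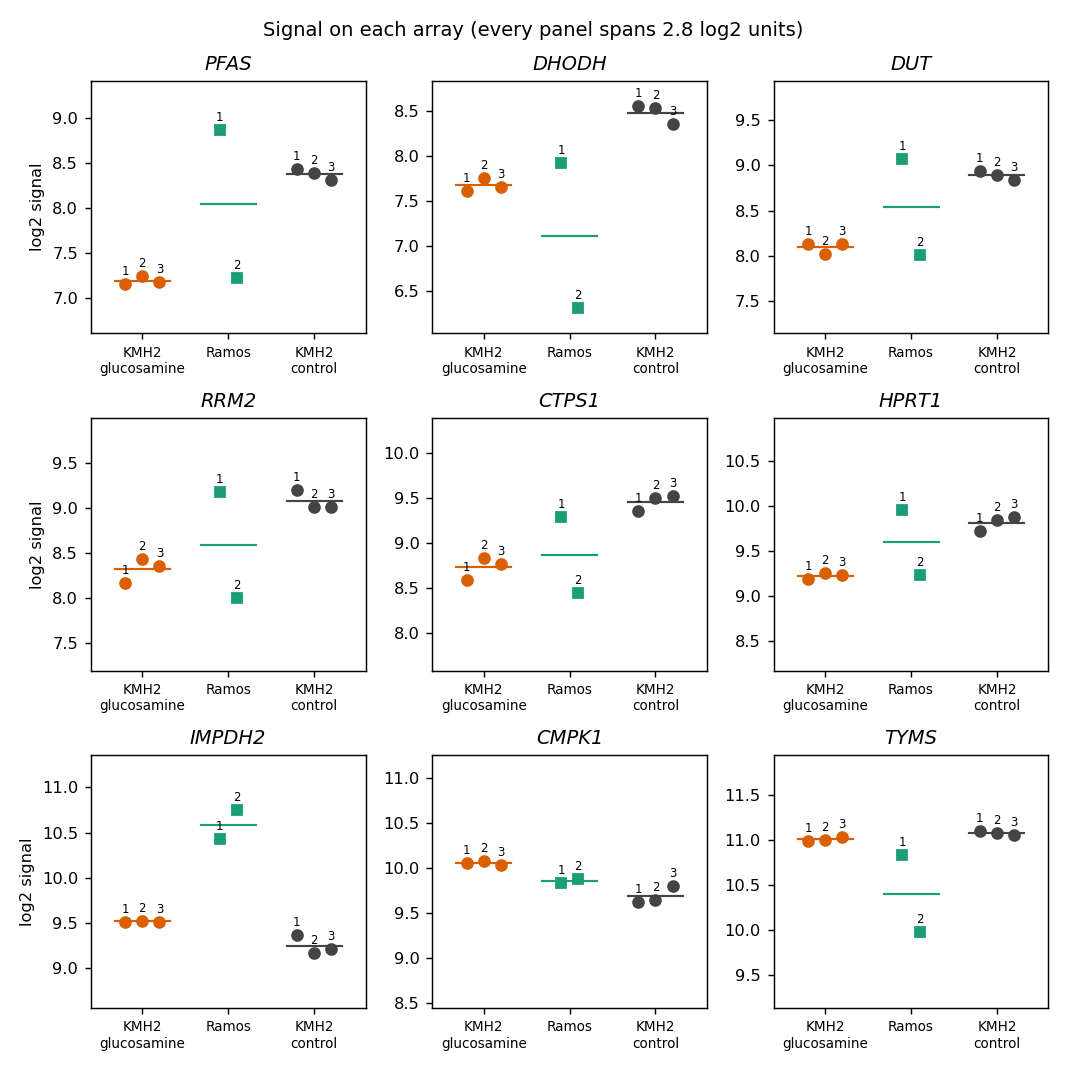
Log2 signal on each array for 9 of the genes, with KMH2 glucosamine on the left of each panel, Ramos in the middle and KMH2 control on the right; points are arrays marked with their replicate number, and lines are group means. PFAS, DHODH, DUT, RRM2, CTPS1 and HPRT1 sit lower on all treated KMH2 arrays than on all controls, IMPDH2 and CMPK1 sit higher, TYMS lies close to its controls, and the Ramos arrays lie far apart in most panels.

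Among the 3 deoxynucleoside kinases, which salvage nucleosides for DNA, 2 fell. TK1, the cytosolic thymidine kinase of S phase, read 7.84, 7.69 and 7.81 after glucosamine, against 8.54, 8.37 and 8.30 in control, all lower (difference -0.63 ± 0.0757, SE, adjusted p = 0.000711). TK2, its mitochondrial counterpart, differed by -0.15 and did not pass (adjusted p = 0.0642). It passed with array weights (0.0116), without dim probe sets (0.0389) and without KMH2 glucosamine replicate 1 (0.0330). DCK, which phosphorylates deoxycytidine and activates cytarabine and gemcitabine, read 8.35, 8.41 and 8.45 after glucosamine and 8.66, 8.57 and 8.73 in control. The groups did not overlap, with a difference of -0.25 (adjusted p = 0.0173), and the call was lost without KMH2 control replicate 1 (0.0526) or replicate 3 (0.0672), within a range of 0.011 to 0.106. SLC29A1, the equilibrative nucleoside transporter that carries nucleosides and their drug analogues into cells, read 9.29, 9.51 and 9.57 after glucosamine and 9.78, 9.83 and 9.79 in control. It fell by 0.34 (adjusted p = 0.0133), a call lost without KMH2 control replicate 2 (0.0540), within a range of 0.00686 to 0.0951.

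The bases before the start of DCK are shown because it is the salvage kinase whose window holds an E-box, which lies at -116 (chr4:70993399-70993648, plus strand, GRCh38.p14, RefSeq; capitals mark CACGTG).
DCK: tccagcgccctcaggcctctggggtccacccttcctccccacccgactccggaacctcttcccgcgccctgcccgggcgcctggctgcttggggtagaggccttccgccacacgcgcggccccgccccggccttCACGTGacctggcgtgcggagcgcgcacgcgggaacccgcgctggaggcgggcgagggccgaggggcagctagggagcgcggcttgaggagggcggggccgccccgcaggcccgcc

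Promoter windows ran from 250 bases before to 50 bases after each start annotated by RefSeq, 300 bases in all, and 31 of the 33 genes had at least 1 window, 44 in total. ADSL and IMPDH2 had none in the table. The motifs were searched on both strands: the E-box CACGTG, bound by MYC family factors; 4 forms of an E2F site (TTTGGCGC, TTTGCCGC, TTTCGCGC and TTTCCCGC); the CCAAT box CCAAT; and TGATGNAA, the element bound by ATF4 with C/EBP partners. No match to one motif overlapped a match to another in these windows. The E-box was in 6 of the 44 windows (13.6%), against 7.26% of all 35116 windows, and those windows belonged to ATIC, PPAT, PAICS, DCK, SLC29A1 and DHODH. All 6 genes fell, out of 20 genes that fell and had a window, and the PPAT and PAICS matches are 1 site on the genome, inside PAICS beyond its start. Base composition differed as well, with a median GC content of 68.3% in the windows of these genes and 58.7% in all windows, and its part in these shares was not tested. An E2F form was in 5 windows (11.4%), against 3.31% of all windows, in DCK, DUT, TYMS, GART and PRPS2, of which TYMS did not pass the test. The CCAAT box was in 13 windows (29.5%), against 34.6% of all windows, and RRM2 had matches in 2 windows, at -123, -93 and -66 from one start and at -249 from another. No window held TGATGNAA, which was in 3.62% of all windows. A match is a string of letters and was not tested as a binding site.

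Genes around these enzymes were counted in 6 further lists, to be read against the 13.9% lower and 11.9% higher over all probe sets. DNA replication and G1/S genes fell in 37 of 41 cases (90.2%) and rose in none, with a median of -0.48, but 9 passed when the Ramos arrays entered the estimate of spread, and their part in the fall of the nucleotide synthesis genes was not tested. The primase gene PRIM1 differed by -1.16 (adjusted p = 5.55e-05), and the DNA polymerase genes POLD2 and POLE by -0.92 (2.74e-05) and -0.91 (6.38e-05). Genes that break nucleotides down fell in 9 of 25 cases and rose in none, with a median of -0.08. That count was 1 with the Ramos arrays in the spread, and 5 without KMH2 control replicate 2 or KMH2 glucosamine replicate 3. They included ENTPD5, a nucleoside diphosphatase of the endoplasmic reticulum (-0.82, adjusted p = 0.000203), NT5C2, a cytosolic nucleotidase that prefers IMP and GMP (-0.43, 0.000606), and DCTPP1, a dCTP pyrophosphatase (-0.47, 0.00102).

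One-carbon and folate genes, which supply carbon units to purines and to thymidylate, split evenly, with 5 of 16 lower and 5 higher (median 0.08), or 3 lower with the Ramos arrays in the spread. The serine synthesis genes PSAT1 and PHGDH rose by 1.15 (adjusted p = 1.14e-05) and 1.06 (0.00011), whereas MTHFD1, the cytosolic trifunctional folate enzyme, fell by 0.65 (0.000105). PHGDH read 10.26, 10.52 and 10.53 after glucosamine, against 9.33, 9.44 and 9.37 in control, all higher. MTHFD1 read 9.46, 9.52 and 9.48 after glucosamine, against 10.14, 10.12 and 10.16 in control, all lower. The list named partners of ribonucleotide reductase holds thioredoxin and glutaredoxin system genes and RRM2B, and not all of them need act on RRM1 and RRM2. Its genes rose in 3 of 6 cases and fell in none, and 1 passed with the Ramos arrays in the spread. TXNRD1, thioredoxin reductase, rose by 0.36 (adjusted p = 0.00122), GLRX, glutaredoxin, by 0.53 (0.00154) and TXN, thioredoxin, by 0.21 (0.0473). RRM2B, the alternative small subunit, differed by 0.22 and did not pass (0.0629). TXN2, also a thioredoxin gene, differed by -0.24 and did not pass (0.0521), although all treated arrays lay below all controls. The count of falls in this list was 1 with the replicate number as a block, without dim probe sets or with a variance trend. It was also 1 with array weights or the mean of a gene's probe sets. In the fit of 6 arrays RRM1 and RRM2 thus fell while TXNRD1, GLRX and TXN were higher and TXN2 was not. With the Ramos arrays in the spread, neither RRM1 (adjusted p = 0.0805) nor RRM2 (0.101) passed.

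Of 21 nucleotide kinases and interconversion genes, 3 fell and 2 rose, a share of 23.8% that is near the 25.8% of all probe sets. NME4, a mitochondrial nucleoside diphosphate kinase, differed by -0.68 (adjusted p = 0.000189), NME3 of the same family by -0.34 (0.00237) and AMPD2, an AMP deaminase, by 0.25 (0.0123). The count of rises was 1 with the Ramos arrays in the spread or with all probe sets of the table. It was also 1 without KMH2 control replicate 1, 2 or 3 or KMH2 glucosamine replicate 2 or 3. With array weights 5 of these genes fell. Of 8 further carriers 1 fell and 1 rose, a share of 25% that is also near that of all probe sets, the rise not passing with the Ramos arrays in the spread. SLC29A3, a lysosomal nucleoside transporter, differed by 0.51 (adjusted p = 0.000877), SLC25A33, a mitochondrial pyrimidine nucleotide carrier, by -0.40 (0.00243), and SLC28A2, a concentrative transporter with low signals, by 0.14 (0.157, not passing).

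**Figure D3:**
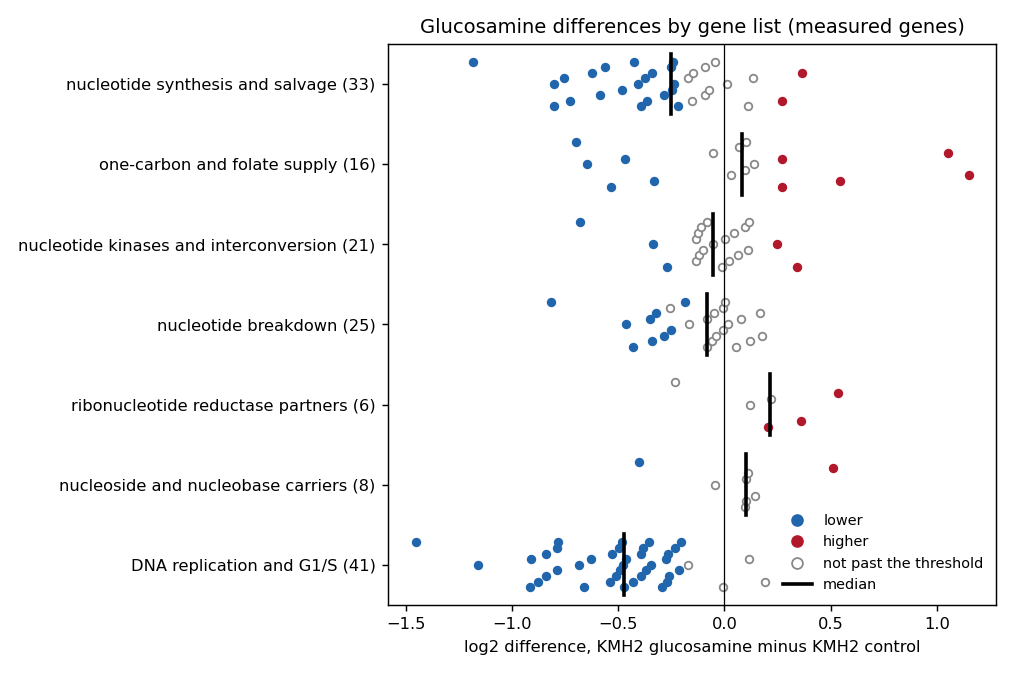
Log2 differences, KMH2 glucosamine minus KMH2 control, of the measured genes of each list; each point is a gene, coloured by whether it fell, rose or did not pass at an adjusted p under 0.05, and the bar is the list's median. The 33 nucleotide synthesis and salvage genes centre on -0.25 and the 41 replication genes on -0.48, while one-carbon genes spread to both sides of 0.

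Ramos was compared with KMH2 control in a fit of all 8 arrays. This comparison shares its control arrays with the glucosamine comparison, so the 2 are not independent, and values are given side by side only. In Ramos 9 of the 33 genes were higher and 8 lower than in KMH2 control, or 51.5% called, which is not far from the 43.8% of all probe sets tested (22.7% higher and 21.2% lower). The median difference was -0.09, against 0.06 over all probe sets. In 9 genes both Ramos arrays lay above all 6 KMH2 arrays and in 6 both lay below, while over all probe sets 48.3% lay outside the KMH2 arrays, 27.1% above and 21.2% below. Of the called genes 7 differed by at least 2-fold.

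The widest differences between the lines were in ADA, CTPS2, TK2 and APRT. ADA read 9.58 and 9.54 on the Ramos arrays and 5.04, 5.01 and 5.07 on the KMH2 control arrays, with KMH2 glucosamine at 4.99 to 5.36. The lines were far apart, with a difference of 4.52 ± 0.103 (SE, adjusted p = 8.29e-09), or 22.9-fold, and background in the low KMH2 signals would make that an understatement. CTPS2 read 7.84 and 7.03 in Ramos and 3.82, 3.71 and 3.87 in KMH2 control, a difference of 3.63 (adjusted p = 2.28e-06). CTPS1, by contrast, read 9.29 and 8.45 in Ramos and 9.36, 9.50 and 9.52 in KMH2 control. Its difference of -0.59 did not pass (adjusted p = 0.0528), with an adjusted p under 0.05 by quantile normalization (0.0420), without dim probe sets (0.0417), with a variance trend (0.0491) and with array weights (0.0419). Its size depended on the Ramos array, at -1.01 without Ramos replicate 1 and -0.17 without Ramos replicate 2.

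DCK read 10.20 and 9.92 in Ramos and 8.66, 8.57 and 8.73 in KMH2 control, a 2.65-fold difference (adjusted p = 6.81e-06). IMPDH2 read 10.43 and 10.75 in Ramos and 9.36, 9.17 and 9.20 in KMH2 control, a 2.54-fold difference (adjusted p = 1.42e-05). Both genes were above all 6 KMH2 arrays in Ramos. IMPDH1 (0.60), SLC29A1 (0.66), ATIC (0.52), UMPS (0.46) and PNP (0.45) were higher by less, with adjusted p from 0.00074 to 0.0333.

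Of the 8 genes lower in Ramos, TK2 and APRT differed most. TK2 read 5.17 and 4.80 in Ramos and 6.81, 6.83 and 6.82 in KMH2 control, a difference of -1.84 (adjusted p = 2.31e-06). APRT read 7.66 and 7.38 in Ramos and 9.29, 9.32 and 9.31 in KMH2 control, a difference of -1.79 (adjusted p = 4.04e-06). Both salvage genes lay below all KMH2 arrays by more than a log2 unit. UCK1 read 8.51 and 8.61 in Ramos and 9.63, 9.50 and 9.42 in KMH2 control (difference -0.96, adjusted p = 2.52e-05), and its paralogue UCK2 differed by -0.61 (adjusted p = 0.00898). PRPS2 (-0.68), TYMS (-0.67), GART (-0.47) and DHODH (-1.36) were lower too, with adjusted p from 0.000629 to 0.0273. The size of some of these differences depended on the Ramos array. DHODH was at -2.17 without replicate 1 and -0.56 without replicate 2, and TYMS at -1.10 and -0.25. GART was at -0.71 without replicate 1 and -0.23 without replicate 2, and UCK2 at -0.90 and -0.33.

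**Figure D4:**
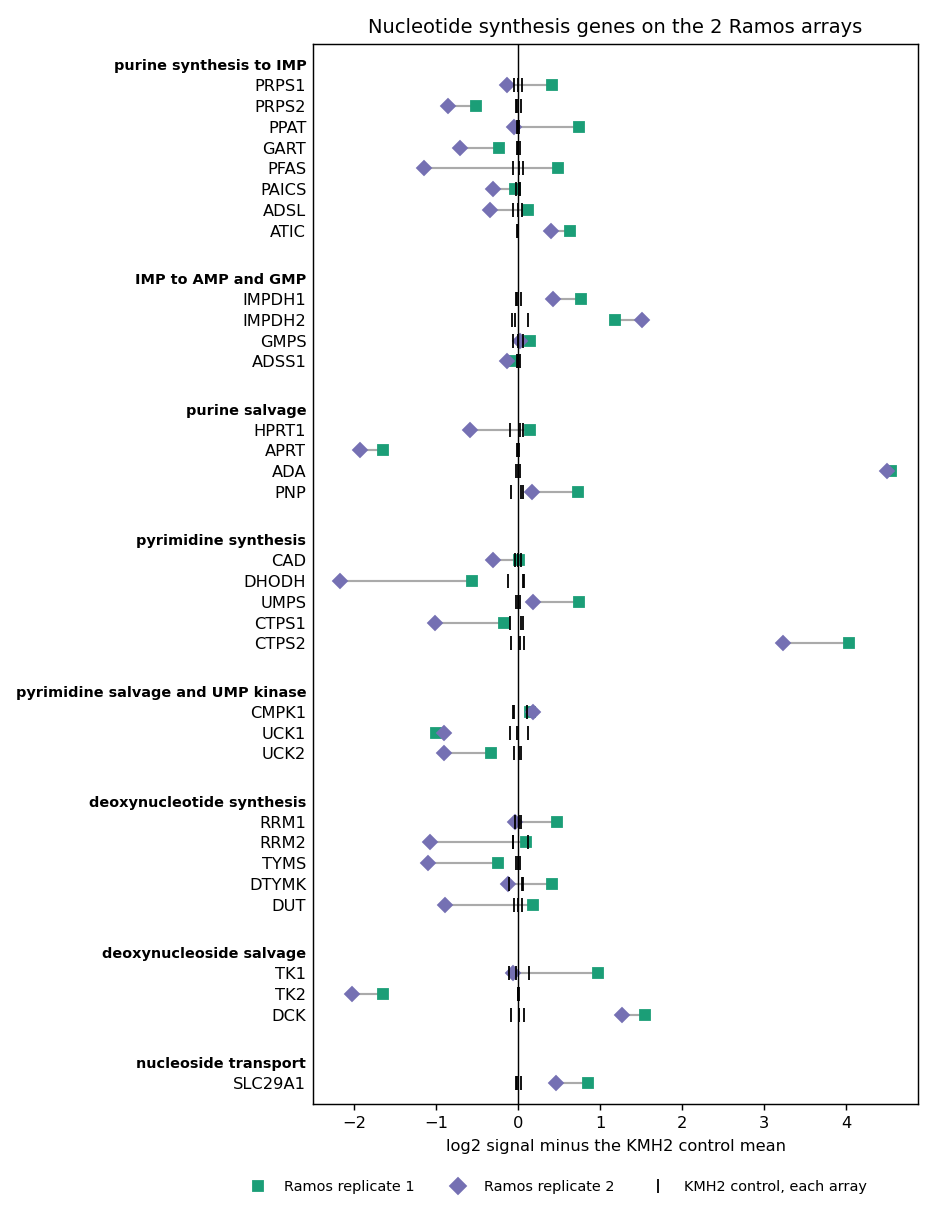
Log2 signal minus the KMH2 control mean for the 33 genes in order of role, with 1 marker for each Ramos array, a line joining the pair and black ticks for the KMH2 control arrays, whose mean is at 0. ADA and CTPS2 stand far to the right, TK2, APRT and DHODH to the left, and for most genes replicate 2 lies left of replicate 1, by up to 1.64 for PFAS.

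The 2 Ramos arrays differed from each other on most of these genes. Replicate 2 was lower than replicate 1 in 30 of 33 genes (90.9%), with a median of -0.48, and lower by at least 0.5 in 16 of them. Over all probe sets tested replicate 2 was lower in 51.8%, with a median of -0.01, and 7.94% were lower by at least 0.5. The replication and G1/S list went the same way, lower in replicate 2 in 39 of 41 genes, with a median of -0.74. PFAS read 8.86 on Ramos replicate 1 and 7.23 on replicate 2, DHODH 7.92 and 6.31, RRM2 9.17 and 7.99, DUT 9.07 and 8.00 and TK1 9.38 and 8.35. The exceptions were IMPDH2 (10.43 and 10.75), UCK1 (8.51 and 8.61) and CMPK1 (9.83 and 9.87), which were higher on replicate 2.

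Each difference from KMH2 control was therefore also computed without either Ramos array. A lone array has no spread of its own, and the median SD of these genes was 0.339 in Ramos against 0.0487 in KMH2 control. Only the sizes of the differences are therefore given from these fits. The genes called with both arrays kept their direction without either array. ATIC, IMPDH1, IMPDH2, ADA, CTPS2, DCK, SLC29A1, PNP and UMPS were higher each time. PRPS2, GART, APRT, DHODH, UCK1, UCK2, TYMS and TK2 were lower each time. PNP and UMPS were at 0.17 and 0.18 without replicate 1 and at 0.73 and 0.74 without replicate 2. PFAS turned its direction: its difference from KMH2 control was -0.33 with both arrays (adjusted p = 0.516), -1.15 without replicate 1 and 0.49 without replicate 2. RRM2 gave -0.49 with both (0.207), -1.08 without replicate 1 and 0.10 without replicate 2. TK1 gave 0.46 with both (0.181), -0.06 without replicate 1 and 0.97 without replicate 2. The direction of both genes thus depended on the Ramos array. When only the 5 arrays of Ramos and KMH2 control were fitted, 12 of the 33 genes passed, and GART, PNP, DHODH, UMPS and TYMS did not. Over all 19181 probe sets 7303 passed in that fit. PNP, UMPS and TYMS also lost their call when any single KMH2 control array was left out, and DHODH without KMH2 control replicate 1 (0.0527) or 2 (0.0545). With the replicate number as a block, UMPS did not pass (0.0575).

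Set beside each other, 10 genes were called in both comparisons. Lower after glucosamine and lower in Ramos were 4, namely PRPS2, GART, APRT and DHODH. Lower after glucosamine and higher in Ramos were 5, namely ATIC, PNP, UMPS, DCK and SLC29A1. IMPDH2 was higher in both. Called after glucosamine but not in Ramos were 13 genes, called in Ramos but not after glucosamine 7, and called in neither 3 (PRPS1, GMPS and ADSS1). A difference between the 2 effects was not tested.

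In the surrounding lists the widest difference in Ramos was that of a nucleotide breakdown gene. Read against the 43.8% of all probe sets, the share called was 43.8% of one-carbon genes, 50% of carriers, 52.4% of kinases, 56% of breakdown genes, 56.1% of replication genes and 83.3% of the 6 reductase partners. ENTPD1, the surface enzyme CD39 that degrades extracellular ATP, read 4.95 and 4.69 in Ramos and 10.06, 9.85 and 9.75 in KMH2 control, a difference of -5.07 (adjusted p = 9.17e-09). UPB1, of pyrimidine degradation, differed by -2.91 and UPP1, uridine phosphorylase, by 1.83, and the list had 8 lower and 6 higher of 25, with 4 to 5 lower when 1 KMH2 control array was left out. Among reductase partners, 2 of 6 were lower and 3 higher, with GLRX at 2.58, RRM2B, the p53-induced alternative small subunit, at 1.40 and TXNRD2 at -0.69. The kinases had 7 lower and 4 higher of 21, led by AK9 (1.32), AK4 (1.31) and ADK, adenosine kinase (-1.56). Of 16 one-carbon genes 2 were lower (1 when any KMH2 control array was left out) and 5 higher, with PHGDH at 1.89, MTHFD1L at 1.83 and MTHFS at -1.16. Carriers had 4 higher and none lower of 8, with SLC29A2, the second equilibrative transporter, at 1.10, SLC25A33 at 0.94 and SLC25A36 at 0.67. Of 41 replication and G1/S genes 16 were lower and 7 higher, with 7 to 8 lower without a KMH2 control array. On this list Ramos replicate 2 minus replicate 1 had a median of -0.74, so these counts depend on the Ramos arrays as well. E2F2 was at 2.93, CCNE1 at -1.77 and ORC6 at 1.08.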

How the data were processed

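Expression on 8 arrays was taken from the log2 table deposited by the authors, with 1 signal for each probe set; the unit was read from the values (1.935 to 13.213). Background correction, summarization and normalization are not stated in the labels, and no scanner file was used here. Background of unknown size in low signals shrinks differences of dim probe sets, and precision is limited by how few arrays each group has.

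Of 33297 probe sets, 19181 had 1 symbol in the platform annotation of 2016 and were tested, 2055 had several and 12061 were unlisted. Entrez identifiers of 19143 matched RefSeq (GRCh38.p14), with 0 symbols changed. Probe set coordinates were not printed.

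Groups came from the titles and, for Ramos, the cell line label. Differences were tested with limma 3.58.1 in R 4.3.3 (lmFit, eBayes, two-sided, Benjamini-Hochberg over all 19181 probe sets, threshold 0.05), with standard errors and 95% confidence intervals from the same fits. The fit was tested on simulated arrays. Apart from the changes put in, all of them had the means and SDs of KMH2 control, so the wider spread of the Ramos arrays was not covered. Glucosamine was tested on 6 KMH2 arrays, Ramos on all 8.

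All 33 genes are named. Of each other list, the 3 genes with the smallest p in each comparison are named, and TXN2 was named after its values were seen. The genes and lists were chosen with earlier results of these data known. Deviations from the group means correlated between KMH2 arrays of the same number at 0.46, 0.23 and 0.23, and between other arrays at -0.37 to 0.25. The design text gives the replicates before and after treatment, so the replicate number was used as a block in an alternative fit. Other alternatives were the arrays that share the spread, quantile normalization, a filter on dim probe sets, all probe sets of the table, a variance trend, array weights, the mean of a gene's probe sets and each array left out; leaving out both KMH2 replicate 1 arrays was chosen after seeing the data.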

Additional observations from a re-analysis of the deposited data

How the results depend on the processing

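After glucosamine, none of the 23 called nucleotide synthesis genes changed direction in 15 alternatives. Among the genes not called, CTPS2 ran from -0.07 to 0.06 in the 14 alternatives that included it. Of the called genes, 6 kept their call in all alternatives. The other 17 all lost it in the fit where all 8 arrays share the spread, which counts the difference between the 2 Ramos arrays as replicate spread. That fit called 6 of these genes (5 lower and 1 higher), 23 genes of the surrounding lists, against 66 in the fit of 6 arrays, and 2177 probe sets. The replicate block, which treats KMH2 arrays of the same number as pairs, called 23 of the genes and changed no call among them. Leaving out 1 array at a time gave 20 to 26 called genes, 19 to 24 lower and 1 to 2 higher; the count of 1 came without KMH2 control replicate 2 or 3 or KMH2 glucosamine replicate 3. Leaving out both KMH2 replicate 1 arrays gave 23, and the dim filter 24.

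In Ramos, 12 of 17 calls held in all 13 alternatives, and 14 of the 16 genes not called passed in at least 1. Of those 14, only CTPS1 and CMPK1 passed in a fit that held both Ramos arrays. The other passes rest on a lone Ramos array assumed to vary like the KMH2 groups, although the Ramos pair varied more. The fit of 5 arrays called 5 genes lower, and the replicate block called 16 in all. Leaving out 1 KMH2 control array gave 13 to 15 called genes, 6 to 7 lower and 7 to 8 higher. Over all probe sets 7035 to 7321 passed in those fits. PFAS reversed, at 0.49 without Ramos replicate 2 and -1.15 without replicate 1. PRPS1, PPAT, ADSL, HPRT1, CAD, RRM1, RRM2, DTYMK, DUT and TK1 also had opposite signs in these fits. None of these genes was called with both Ramos arrays. Causes were not tested. With 2 Ramos arrays and 3 in each KMH2 group, small differences cannot be resolved.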
